A study of Homo sapiens with 40 samples.

Results

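The 10 genes described here encode SR splicing factors: SRSF1, SRSF2, SRSF3, SRSF4, SRSF5, SRSF6, SRSF7, SRSF9, SRSF10 and SRSF11. They were taken by name from the 58395 genes of the deposited count table, and all 10 passed the filter on low counts together with 28922 genes in all. RNA-seq was carried out in HEK293A, an adherent human embryonic kidney cell line, as wild-type (WT) cells and as PARP1-KO cells. PARP1-KO is a single clone in which part of the coding exons of PARP1, the main poly(ADP-ribose) polymerase of the DNA damage response, was deleted with CRISPR/Cas9 (the genotype label calls it a knockdown). Each line was left untreated, given 0.1% DMSO, given topotecan (Tpc) with 0.1% DMSO, given 5 µM OL9-119 in 0.1% DMSO, or given Tpc and OL9-119 together. Tpc is a poison that traps TOP1, DNA topoisomerase 1, on DNA, and OL9-119 is an inhibitor of TDP1, the enzyme that removes trapped TOP1. Tpc was used at 100 nM in WT and at 50 nM in PARP1-KO, exposure lasted 5 to 5.5 h, and each of the 10 groups held 4 libraries.

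SR proteins bind exonic enhancers in nascent transcripts through RNA recognition motifs and recruit the spliceosome through domains rich in arginine and serine. Phosphorylation of these domains by the SRPK and CLK kinases governs their entry into the nucleus and their release from nuclear speckles, and TOP1 has been described as a further kinase of SR proteins besides its action on DNA supercoils. Most SR genes carry alternative exons or retained introns that place a premature stop codon in the transcript, so that SR proteins limit their own level through nonsense-mediated decay. The counts are per gene and do not separate these transcripts from the coding ones, although the annotation lists between 1 and 6 transcripts subject to nonsense-mediated decay for each of the 10 genes.

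SRSF10 passed the test between genotypes and under drug treatment, and SRSF6 and SRSF3 were the other SR genes that passed under drug treatment. Proximal promoter windows, set by RefSeq start sites, are shown for these 3 genes because they passed under drug treatment. SRSF10 (ENSG00000188529) lies on chromosome 1 (hg38, 23964347 to 23980927, minus strand), SRSF6 (ENSG00000124193) on chromosome 20 (43457893 to 43466046, plus strand) and SRSF3 (ENSG00000112081) on chromosome 6 (36594353 to 36605600, plus strand). The 250 bases before each RefSeq start site (GRCh38.p14) are given from 5′ to 3′ on the gene's own strand in lower case. Capitals mark letters of the motifs searched, which were the CCAAT box (CCAAT or ATTGG), the TATA box (TATAAA or TTTATA), the GC box (GGGCGG or CCGCCC), an ETS motif (CCGGAAG or CTTCCGG), the cyclic AMP response element (TGACGTCA) and the palindromic NRF1 motif.
SRSF10, chr1:23980328-23980577, minus strand: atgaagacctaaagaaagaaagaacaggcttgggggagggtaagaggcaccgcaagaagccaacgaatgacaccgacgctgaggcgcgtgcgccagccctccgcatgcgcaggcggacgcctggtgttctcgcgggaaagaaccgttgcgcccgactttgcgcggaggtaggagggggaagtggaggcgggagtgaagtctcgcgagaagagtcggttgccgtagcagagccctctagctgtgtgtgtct
SRSF6, chr20:43457646-43457895, plus strand: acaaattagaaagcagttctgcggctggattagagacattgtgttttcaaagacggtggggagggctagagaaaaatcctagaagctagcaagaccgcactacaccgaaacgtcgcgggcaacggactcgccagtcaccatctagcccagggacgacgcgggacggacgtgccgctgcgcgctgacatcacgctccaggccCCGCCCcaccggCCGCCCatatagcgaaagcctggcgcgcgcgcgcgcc
SRSF3, chr6:36594112-36594361, plus strand: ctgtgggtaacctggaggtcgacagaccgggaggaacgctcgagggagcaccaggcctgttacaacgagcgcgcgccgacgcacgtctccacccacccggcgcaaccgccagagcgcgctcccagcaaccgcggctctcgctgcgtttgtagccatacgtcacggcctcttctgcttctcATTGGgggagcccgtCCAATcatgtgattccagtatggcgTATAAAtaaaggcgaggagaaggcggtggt
The SRSF3 window held both orientations of the CCAAT box, starting 70 and 55 bases before the start site, and a TATA box 30 bases before it. Of 35116 RefSeq promoters of the same length, 11240 held a CCAAT box and 10.7% a TATA box. The SRSF6 window held GC box letters 49 and 37 bases before the start site, a motif present in 42.6% of promoters. None of these letters was found in the SRSF10 window. That window lies inside the annotated gene, since the RefSeq start site is downstream of the annotated 5′ end at 23980927. The bases before that 5′ end were not searched. Shares for the other motifs were 8.52% (ETS), 1.65% (cyclic AMP response element) and 1.03% (NRF1). These are matches of letters only, and binding was not measured.

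The PARP1 gene count was low in every PARP1-KO library, while counts per gene do not show the deleted exons themselves. PARP1 stood at 30.4 to 46.6 CPM (gene counts relative to the library size after TMM scaling) in PARP1-KO and at 737.4 to 887.1 CPM in WT, which is between 4.33% and 5.25% of the WT mean under the 5 treatments (exact two-sided permutation test, p = 0.0286 in each, the smallest that 70 divisions of 8 libraries allow). Library totals lay between 3455043 and 14398670 counts for WT and between 6436740 and 20379777 counts for PARP1-KO. Genes detected per library lay between 16029 and 23183 in WT and between 18730 and 26531 in PARP1-KO. Untreated WT was uneven, with 18052 and 16216 genes in replicates 1 and 3, and 22286 and 21886 in replicates 2 and 4. The part of this unevenness in the results below was not tested. The share of counts on mitochondrial genes was 4.73% to 8.25% in WT and 3.73% to 4.97% in PARP1-KO, so it moved with the genotype, and its part in the genotype differences below was not tested. Of the HEK293 markers, KRT8, KRT18 and VIM were at 188.6 CPM or more in every library, NEFM and PAX2 were lower (3.4 to 49.6 and 0.098 to 12.05 CPM), and the leukocyte genes PTPRC, CD3E and CD14 did not exceed 0.464, 0.410 and 4.73 CPM. The endothelial genes PECAM1, CDH5 and VWF reached 2.74, 1.68 and 5.55 CPM and fibroblast DCN 0.888 CPM, whereas the collagen genes COL1A1 and COL3A1 lay between 7.6 and 43.0 CPM. In bulk RNA, fewer cells carrying a transcript and less transcript per cell cannot be told apart. The labels call the 4 libraries of a group biological replicates and the study's methods call them technical, so p-values measure the spread between these libraries.

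All 10 SR genes were well covered, with between 549 and 13841 counts per gene and library. In untreated WT cells, levels per kilobase of annotated exon ran from 111 ± 12.6 CPM per kb for SRSF2, whose protein is a classical marker of nuclear speckles, through 77.6 ± 8.87 for SRSF3, 73.7 ± 4.36 for SRSF7, 66.4 ± 7.68 for SRSF6 and 64.7 ± 4.25 for SRSF1. They continued with 47.9 ± 6.43 for SRSF9, 45.2 ± 7.97 for SRSF11, 42.7 ± 5.08 for SRSF5, 23.9 ± 1.64 for SRSF10 and 16.6 ± 2.19 CPM per kb for SRSF4 (mean ± SD, n = 4 each). Only the steps from SRSF2 to SRSF3, from SRSF1 to SRSF9, from SRSF5 to SRSF10 and from SRSF10 to SRSF4 were wider than the sum of the SDs of both genes, and the other neighbours in this order did not differ beyond their spread. The order depended on the length used: divided by the longest transcript instead, SRSF3 (131 CPM per kb), SRSF2 and SRSF9 (111) came first, with SRSF10 (37.0) and SRSF4 (18.0) still last. Across the 10 groups the highest group mean was between 1.32 times (SRSF7) and 1.88 times (SRSF10) the lowest. The lowest group mean was found in OL9-119-treated WT cells for 6 of the 10 genes (SRSF1, SRSF2, SRSF3, SRSF5, SRSF7 and SRSF11) and the highest in Tpc-treated PARP1-KO cells for 5 (SRSF3, SRSF5, SRSF7, SRSF10 and SRSF11).

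**Figure D1:**
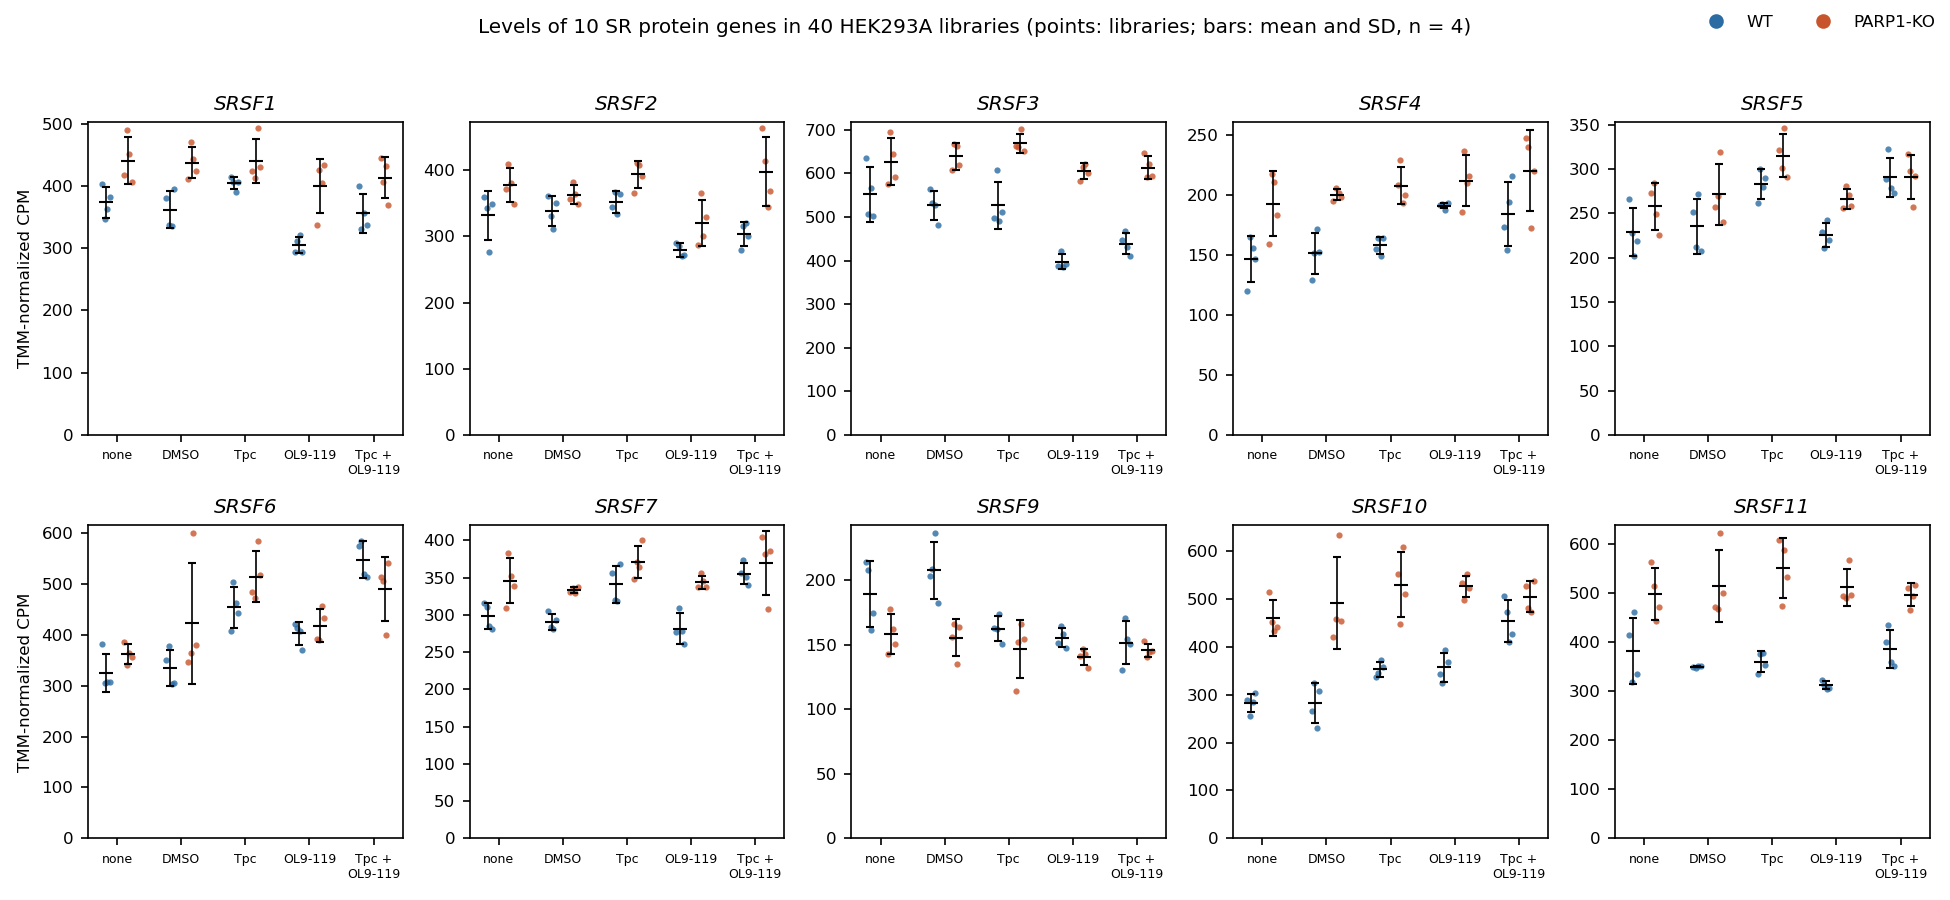
Level of each SR gene (CPM, TMM-scaled, linear axis) in the 40 libraries, 1 panel per gene, with points for libraries and bars for the mean ± SD of the 4 libraries of a group. SRSF10 lies at 256.1 to 302.5 CPM in untreated WT and at 433.4 to 514.5 CPM in untreated PARP1-KO, and SRSF3 dips to 386.4 to 422.3 CPM in WT cells given OL9-119.

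Added together, the 10 genes made up 3112 ± 195 CPM in untreated WT and 3720 ± 185 CPM in untreated PARP1-KO (mean ± SD, n = 4). Over all treatments the sum lay between 2826 and 3627 CPM in the 20 WT libraries and between 3515 and 4452 CPM in the 20 PARP1-KO libraries. The ranges of the genotypes overlapped by little, and within WT the sum was lowest with OL9-119 (2908 ± 57.8 CPM) and highest with Tpc and OL9-119 together (3470 ± 146 CPM).

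The first comparison asked how SR gene levels differed between PARP1-KO and WT cells without drug; PARP1-KO being a single clone, loss of PARP1 and other differences of that clone cannot be told apart. In untreated cells 2 of the 10 genes rose and none fell in PARP1-KO (edgeR quasi-likelihood test, Benjamini-Hochberg adjusted p below 0.01 over all genes tested), against 11.7% of all genes called and 5.97% called higher. In DMSO, 3 rose and 1 fell, against 12.4% of all genes called, 6.67% higher and 5.75% lower. The genes that rose were SRSF10 and SRSF11 in both settings and SRSF4 in DMSO, and the one that fell was SRSF9 in DMSO. SRSF10 encodes a splicing regulator that turns into a general splicing repressor when it is dephosphorylated, as in heat shock.

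SRSF10 stood at 288.2, 256.1, 284.7 and 302.5 CPM in the untreated WT libraries and at 514.5, 451.2, 433.4 and 441.2 CPM in the untreated PARP1-KO libraries. With DMSO it stood at 266.1, 325.3, 231.2 and 307.5 CPM in WT and at 421.2, 457.4, 633.3 and 453.3 CPM in PARP1-KO. Every PARP1-KO library was above every WT library in both settings, and replicate 3 of PARP1-KO in DMSO was the highest of all 40. The log2 fold change (log2FC) of SRSF10 was 0.70 ± 0.11 (SE; adjusted p = 1.84e-06) untreated and 0.80 ± 0.11 (adjusted p = 1.01e-07) in DMSO, or 62.6% and 73.9% higher. Within library-name prefixes, which the sample names show beside a replicate number, the difference was 0.74 and 0.77 untreated and 0.72, 0.96 and 0.77 in DMSO. Each value within a prefix, here and below, rests on only 1 or 2 libraries per group. The prefix L03 holds no untreated PARP1-KO library, so its untreated WT libraries do not enter. With offsets for transcript length and GC content the log2FC of SRSF10 was reduced to 0.31 (adjusted p = 0.0092) and 0.40 (adjusted p = 0.00065), still past the threshold.

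SRSF11, a factor that binds the large subunit of the 3′ splice site protein U2AF, stood at 414.9, 319.5, 462.0 and 334.4 CPM in untreated WT and at 564.2, 514.8, 443.3 and 472.9 CPM in untreated PARP1-KO. With DMSO it stood at 349.7, 348.4, 352.1 and 352.1 CPM in WT and at 471.3, 467.5, 622.4 and 499.7 CPM in PARP1-KO. The groups overlapped in 1 WT library untreated and did not overlap in DMSO. The log2FC of SRSF11 was 0.38 ± 0.11 (SE; adjusted p = 0.0065) untreated and 0.56 ± 0.11 (adjusted p = 5.96e-05) in DMSO, with 0.38 and 0.52 within the name prefixes untreated and 0.42, 0.84 and 0.50 in DMSO. The untreated call was lost with the library-name prefix as batch (0.37, adjusted p = 0.014), without a filter on low counts (0.37, adjusted p = 0.014) and with only the groups compared (0.36, adjusted p = 0.067). It was also lost without replicate 1 of untreated PARP1-KO (0.32, adjusted p = 0.040), without its replicate 2 (0.37, adjusted p = 0.021), and without replicate 2 or 4 of untreated WT (0.32 in both, adjusted p = 0.035). With length and GC offsets SRSF11 did not pass in either setting (0.12, adjusted p = 0.42, and 0.26, adjusted p = 0.040). The DMSO call was lost as well with only the groups compared (0.53, adjusted p = 0.0105).

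SRSF4, a large SR protein with a long arginine and serine domain, stood at 129.3, 151.1, 171.8 and 152.0 CPM in WT with DMSO and at 194.6, 205.8, 201.6 and 198.3 CPM in PARP1-KO with DMSO. The groups did not overlap, and the log2FC was 0.41 ± 0.12 (SE; adjusted p = 0.0085). The untreated log2FC of SRSF4 was of the same size, 0.40 ± 0.12, with an adjusted p of 0.011 that missed the threshold, and libraries overlapped. SRSF4 passed untreated with the replicate block (adjusted p = 0.0090), with the name prefix as batch (adjusted p = 0.0073), with RLE scaling (adjusted p = 0.0098), with filterByExpr (adjusted p = 0.0075) and in DESeq2 (adjusted p = 0.0020). The call in DMSO was lost on leaving out any library but replicate 3 of WT in DMSO (adjusted p = 0.017 to 0.055), and with length and GC offsets the log2FC of SRSF4 was 0.038 (adjusted p = 0.91). That call was also lost with RLE scaling (adjusted p = 0.0105), without a filter on low counts (adjusted p = 0.023) and with only the groups compared (adjusted p = 0.056). The lowest untreated log2FC of SRSF4 over the alternatives was 0.090. SRSF9, a small SR protein known from stress-induced nuclear bodies, moved the other way: 203.0, 209.0, 236.4 and 182.7 CPM in WT with DMSO, and 156.4, 166.3, 134.9 and 163.8 CPM in PARP1-KO with DMSO. The groups did not overlap, and SRSF9 decreased by 25.2% (log2FC -0.42 ± 0.11 SE, adjusted p = 0.0047), with -0.33, -0.63 and -0.34 within the name prefixes. The call was lost without replicate 3 of WT in DMSO (-0.35, adjusted p = 0.027), without replicate 1 of PARP1-KO in DMSO (-0.43, adjusted p = 0.010) and without its replicate 3 (-0.36, adjusted p = 0.035). With only the groups compared the SRSF9 call was lost too (-0.44, adjusted p = 0.034). Untreated, the log2FC of SRSF9 was -0.26 ± 0.11 (adjusted p = 0.11). SRSF9 shares 1725 bases of its annotated exons with GATC on the opposite strand, and since the counting strand is not given in the sources used here, reads of the pair may not be separated.

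The other 6 genes did not pass the test between genotypes in edgeR, while DESeq2 also called SRSF1 (0.26, adjusted p = 0.0061) and SRSF3 (0.27, adjusted p = 0.0042) in DMSO and thus 6 of the 10 genes there. The share of all genes called in DESeq2 is not given beside this count. In edgeR the log2FC of the other 6 genes lay between 0.15 and 0.24 untreated, and SRSF1, SRSF3 and SRSF6 reached 0.27 (adjusted p = 0.038), 0.28 (adjusted p = 0.022) and 0.34 (adjusted p = 0.036) in DMSO. Altogether 9 of the 10 log2FC were positive in each setting, with medians of 0.20 and 0.28, but with length and GC offsets only 6 and 8 were positive and the medians were 0.053 and 0.055. The median over the 10523 genes above 10 CPM was 0.011 untreated and 0.020 in DMSO. The longest transcripts of the 10 genes have a GC content of 35.9% to 45.6%, and all 10 were below the median of 46.9% for genes above 10 CPM. SRSF1, SRSF2 and SRSF4 also share annotated exon bases with neighbours, the largest stretch being 1890 bases on the same strand for SRSF1 and 823 bases opposite MFSD11 for SRSF2. Pseudogenes named after SRSF1, SRSF2, SRSF3, SRSF6, SRSF9 and SRSF10 exist (1 to 5 each), and reads shared with them could not be traced.

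**Figure D2:**
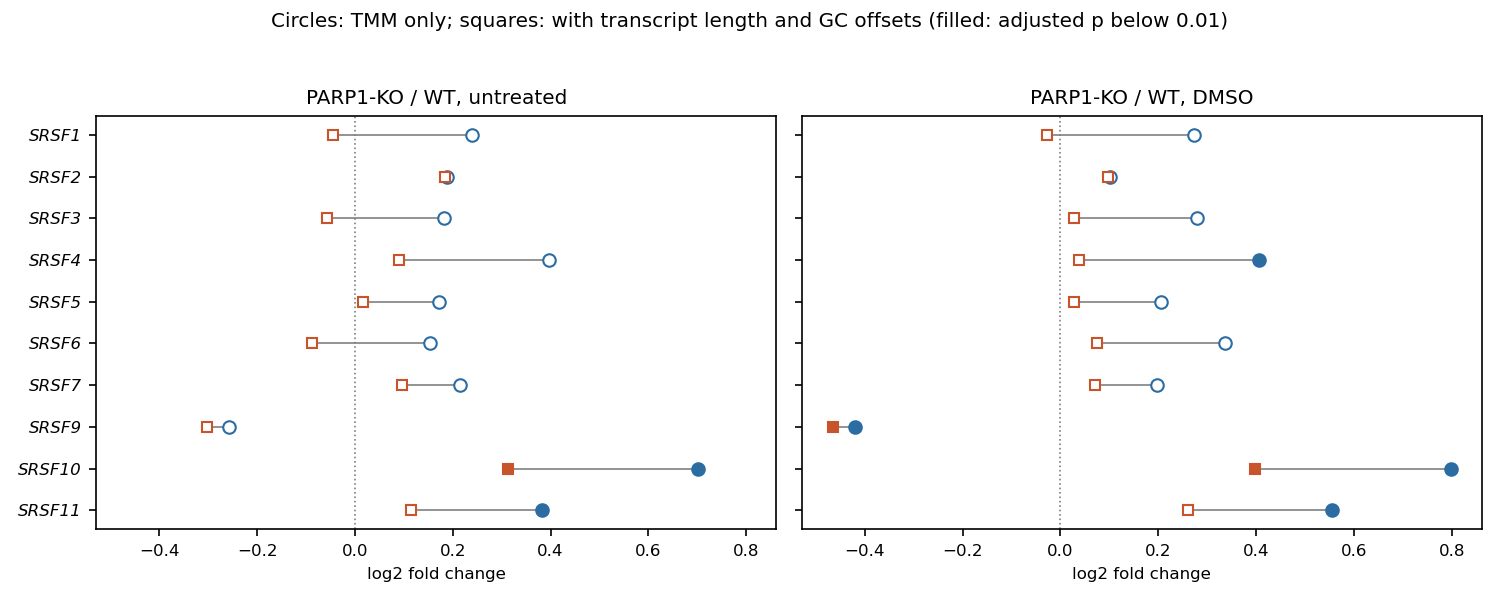
Log2FC of PARP1-KO over WT for the 10 SR genes, untreated and in DMSO, with TMM scaling only (circles) and with added offsets for transcript length and GC content (squares); filled symbols passed an adjusted p of 0.01. The offsets move SRSF10 from 0.70 to 0.31 untreated and SRSF4 from 0.41 to 0.038 in DMSO, while SRSF9 stays below 0.

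DMSO alone was the solvent control. In edgeR none of the 10 genes passed in WT (0% of all genes called) or in PARP1-KO (0% of all genes called), and none passed in DESeq2. None of the 10 had an unadjusted p below 0.05 in either line, against 3116 and 538 of all genes. The log2FC of the 10 genes lay between -0.13 and 0.13 in WT and between -0.058 and 0.22 in PARP1-KO. The upper value belongs to SRSF6, which stood at 346.2, 364.9, 599.0 and 379.1 CPM in PARP1-KO with DMSO, so that 1 library was far above the others.

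The Tpc comparison in WT asked whether trapping of TOP1 changes SR gene levels. None of the 10 genes passed in edgeR, against 0.857% of all genes called, while 4 had an unadjusted p below 0.05 (4499 of all 28922 genes tested) and DESeq2 called 1, SRSF6. SRSF6, which binds exonic enhancers of many alternative exons, stood at 381.2, 304.3, 307.5 and 306.5 CPM in untreated WT and at 406.5, 504.2, 461.7 and 442.7 CPM with Tpc. The groups did not overlap, and replicate 1 of untreated WT was the highest of its group. The log2FC of SRSF6 was 0.48 ± 0.12 (SE; adjusted p = 0.015), with 0.093, 0.73 and 0.56 within the name prefixes. SRSF6 passed in DESeq2 (0.47, adjusted p = 0.0044), without a filter on low counts (adjusted p = 0.0033), with the filterByExpr filter (adjusted p = 0.0098) and without replicate 1 of untreated WT (0.57, adjusted p = 0.0049). Of the 10 alternatives besides leaving out a library, 6 gave no call for SRSF6, among them the one against DMSO. Over these 10 its log2FC ran from 0.35 to 0.48, with an adjusted p of up to 0.092. SRSF10 was at 336.5, 344.8, 372.6 and 358.7 CPM with Tpc, above every untreated WT library, with a log2FC of 0.32 ± 0.11 (adjusted p = 0.12). Of the rest, SRSF5 had 0.31 ± 0.11 (adjusted p = 0.13), and SRSF1, SRSF2, SRSF3, SRSF4, SRSF7, SRSF9 and SRSF11 lay between -0.22 and 0.19.

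With OL9-119 alone in WT cells SRSF3 fell and the other 9 genes did not pass the test, against 1.28% of all genes called and 0.833% called lower. SRSF3, the smallest classical SR protein, which couples splicing to export of the messenger RNA, stood at 636.0, 505.9, 567.3 and 501.5 CPM untreated. With OL9-119 it stood at 386.5, 422.3, 386.4 and 393.3 CPM, and the solvent control with DMSO gave 563.9, 533.3, 526.5 and 482.5 CPM. Every OL9-119 library was below every untreated and every DMSO library of WT. SRSF3 decreased by 28.2% from its level in untreated cells (log2FC -0.48 ± 0.092 SE, adjusted p = 0.00052) and had a log2FC of -0.41 (adjusted p = 0.0047) against DMSO. Within the name prefixes the difference was -0.72, -0.26 and -0.45. The SRSF3 call held without each of the 8 libraries in turn, and was lost when only the 2 groups compared were fitted (-0.48, adjusted p = 0.080).

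SRSF1, the archetype of the family and a proto-oncogene in several tumours, stood at 403.6, 346.4, 363.4 and 381.8 CPM untreated and at 294.5, 311.1, 321.6 and 293.6 CPM with OL9-119. The groups did not overlap, but the log2FC of -0.29 ± 0.097 (SE) had an adjusted p of 0.089. SRSF1 passed in DESeq2 (-0.30, adjusted p = 0.0059) and with length and GC offsets (-0.43, adjusted p = 0.0091). Of the 10 alternatives besides leaving out a library, 8 gave no call for SRSF1, among them the one against DMSO. Over these 10 its log2FC ran from -0.43 to -0.25, with an adjusted p of up to 0.30. SRSF4 (0.38 ± 0.12, adjusted p = 0.059) and SRSF10 (0.34 ± 0.11, adjusted p = 0.085) had positive values that did not pass. Their groups did not overlap, which is a description only, given without the share over all genes. In all, 8 of the 10 genes had an unadjusted p below 0.05, against 4643 of all 28922 genes tested, and 7 had a negative log2FC, with a median of -0.17 beside 0.0045 for the genes above 10 CPM.

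Tpc and OL9-119 together gave 2 genes that rose in WT, SRSF6 and SRSF10, and none that fell, against 4.07% of all genes called and 2.07% called higher. SRSF6 stood at 574.2, 583.9, 518.4 and 513.5 CPM with both agents, 68.5% above untreated WT (log2FC 0.75 ± 0.12 SE, adjusted p = 8.77e-06). SRSF10 stood at 506.4, 473.1, 409.8 and 427.8 CPM, 60.7% above untreated WT (0.68 ± 0.11, adjusted p = 1.41e-05). For both genes every library with the combination was above every untreated and every DMSO library of WT. Within the name prefixes the difference was 0.59, 0.94 and 0.75 for SRSF6 and 0.81, 0.89 and 0.51 for SRSF10. With length and GC offsets the log2FC was 0.54 (adjusted p = 0.00026) for SRSF6 and 0.41 (adjusted p = 0.0015) for SRSF10. Against DMSO instead of untreated cells the values were 0.71 and 0.69, and SRSF9 also passed, with -0.45 (adjusted p = 0.0066).

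SRSF3 with the combination stood at 446.5, 466.9, 431.8 and 410.5 CPM, below every untreated WT library and above 3 of the 4 WT libraries given OL9-119 alone. Its log2FC of -0.33 ± 0.092 (SE) had an adjusted p of 0.013. SRSF3 passed in DESeq2 (adjusted p = 0.00091), with filterByExpr (adjusted p = 0.0028), with length and GC offsets (-0.55, adjusted p = 0.00010), and without replicate 2 or replicate 4 of untreated WT (-0.37, adjusted p = 0.0092, and -0.38, adjusted p = 0.0060). Of the 10 alternatives besides leaving out a library, 6 gave no call for SRSF3, among them the one against DMSO. Over these 10 its log2FC ran from -0.55 to -0.26, with an adjusted p of up to 0.15. DESeq2 called 5 of the 10 genes with the combination, adding SRSF5 (0.35, adjusted p = 0.0064), a factor tied to insulin-dependent splicing, and SRSF7 (0.26, adjusted p = 0.0055), an adaptor for mRNA export. The share of all genes called in DESeq2 is not given beside this count. The median log2FC of the 10 genes was 0.14, and -0.0098 with length and GC offsets. The 3 drug comparisons in WT and the untreated genotype comparison share the untreated WT libraries, so their values for a gene are not independent of each other.

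**Figure D3:**
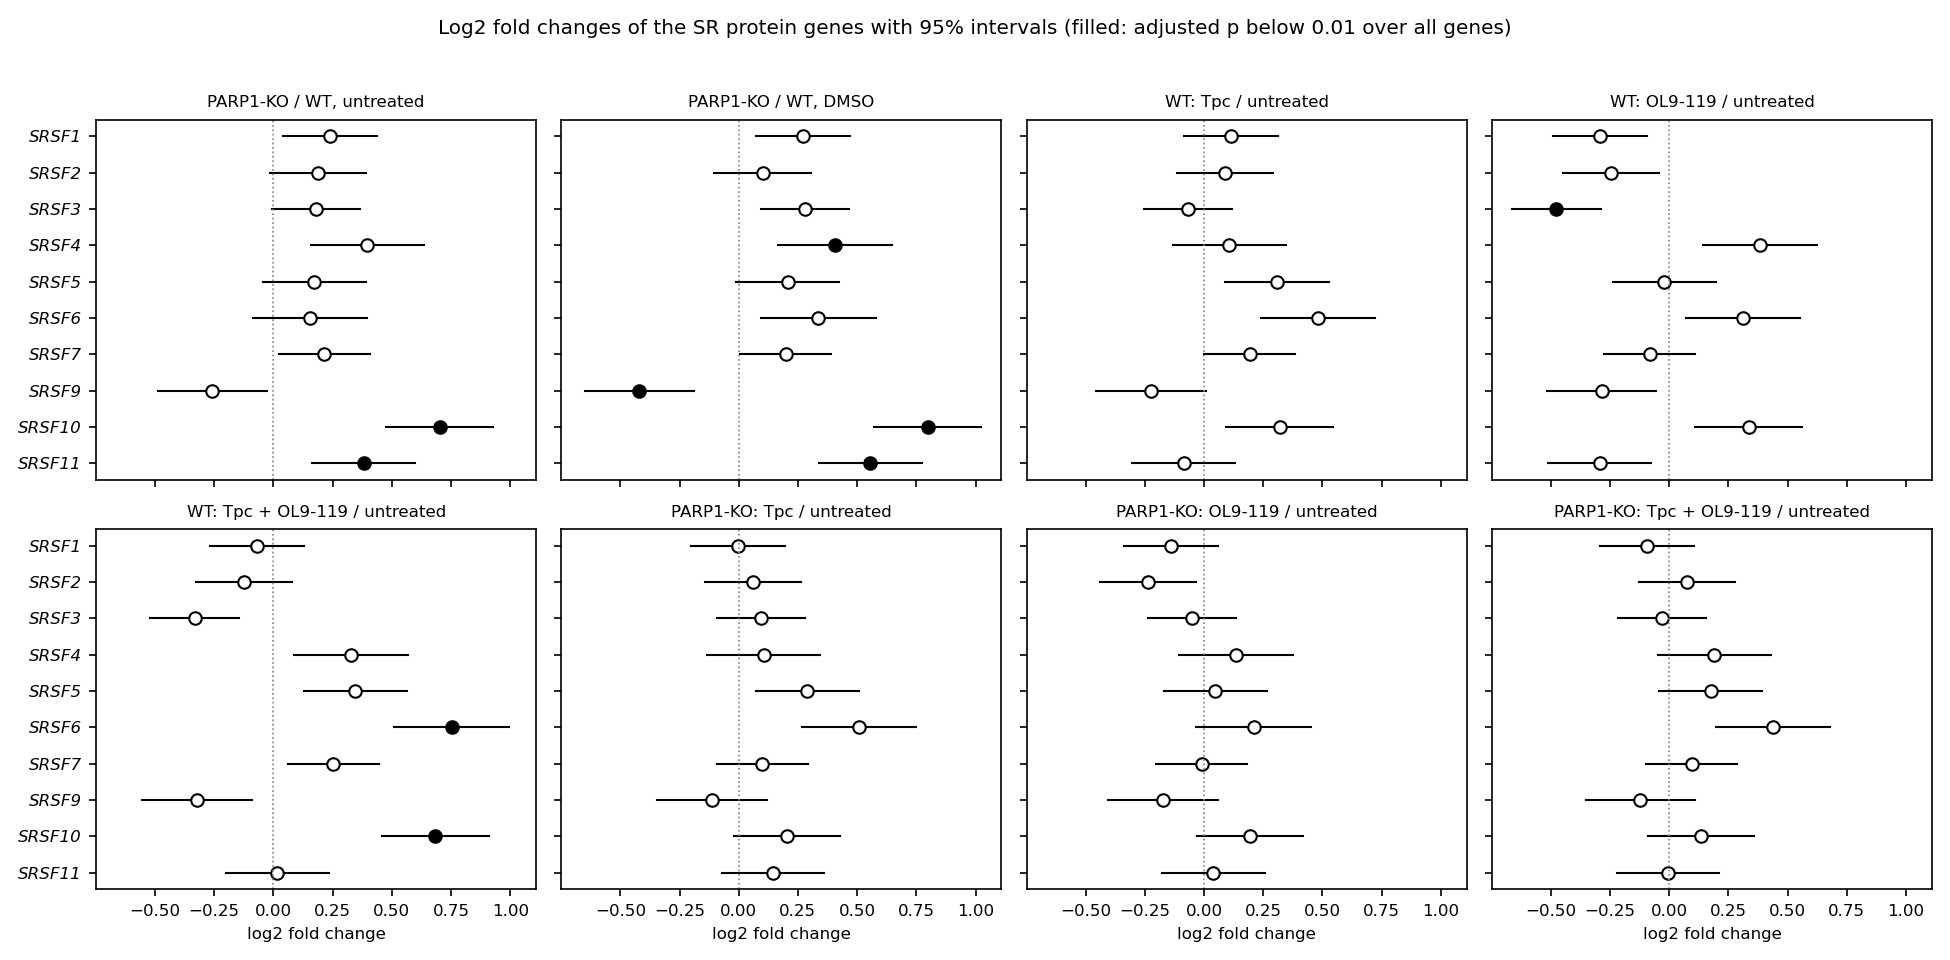
Log2FC of the 10 SR genes with 95% intervals in 8 comparisons (untreated and DMSO genotype comparisons, and the 3 drug treatments against untreated cells in each line); filled points passed an adjusted p of 0.01. SRSF10 and SRSF6 reach 0.68 and 0.75 with Tpc and OL9-119 in WT, SRSF3 falls to -0.48 with OL9-119 in WT, and no point is filled in the PARP1-KO treatment panels.

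The combination was also set against Tpc alone in WT. None of the 10 genes passed in edgeR (0.18% of all genes called) or in DESeq2, and 4 had an unadjusted p below 0.05, against 3111 of all 28922 genes. SRSF10 had the highest value, 0.36 ± 0.11 (SE; adjusted p = 0.19), SRSF6 had 0.27 ± 0.12 (adjusted p = 0.41) and SRSF3 had -0.26 ± 0.092 (adjusted p = 0.27). For each of these 3 genes, and for SRSF2 (-0.21, adjusted p = 0.45), the 4 libraries with both agents did not overlap the 4 with Tpc. This is a description only, given without the share over all genes. Departure from additivity, meaning the log2FC of the combination less the sum of those of both agents, passed for none of the 10 in edgeR (0.00346% of all genes called) or in DESeq2. The departure was 0.028 for SRSF10 (95% interval -0.29 to 0.35) and -0.040 for SRSF6 (-0.38 to 0.30). SRSF11 was the only one of the 10 with an unadjusted p below 0.05 (0.40 ± 0.15 SE, adjusted p = 0.45), against 2713 of all 28922 genes.

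In PARP1-KO cells no SR gene passed under any treatment in edgeR or in DESeq2. The share of all genes called was 0.0138% with 50 nM Tpc, 0.00346% with OL9-119 and 0% with both agents. An unadjusted p below 0.05 was seen for 2 of the 10 genes with Tpc, against 1713 of all 28922, for 1 with OL9-119, against 931, and for 1 with both agents, against 1241. Against Tpc alone, the combination in PARP1-KO gave none at an unadjusted p below 0.05 (0% of all genes called, 1186 at an unadjusted p below 0.05). SRSF6 was again the gene with the highest value: 386.6, 340.1, 363.5 and 356.2 CPM untreated, 483.9, 472.0, 583.3 and 517.3 CPM with Tpc, and 513.8, 504.8, 398.6 and 540.5 CPM with both agents. Neither treated group overlapped the untreated one, and the log2FC of SRSF6 was 0.51 ± 0.12 (SE; adjusted p = 0.096) with Tpc and 0.44 ± 0.12 with both agents (adjusted p = 1). When only the 2 groups compared were fitted, SRSF6 passed with Tpc (0.49, adjusted p = 0.00094). Against DMSO in place of untreated cells, the log2FC of SRSF6 was smaller, 0.28 with Tpc and 0.21 with both agents, and neither passed. Both treated groups overlapped the PARP1-KO libraries with DMSO, which ranged from 346.2 to 599.0 CPM.

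SRSF10 in PARP1-KO stood at 552.5, 447.8, 607.6 and 511.3 CPM with Tpc and at 527.1, 481.2, 473.2 and 538.3 CPM with both agents, overlapping its untreated range in each case (log2FC 0.20 ± 0.11 and 0.13 ± 0.11 SE). SRSF3 stood at 582.6, 614.6, 622.9 and 602.0 CPM with OL9-119, inside the untreated range of 575.4 to 694.9 CPM (log2FC -0.050 ± 0.091 SE). The difference between the lines in these responses was tested with an interaction term, with the Tpc dose differing between lines as stated above.

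No SR gene passed that test in edgeR or DESeq2 for Tpc (0.1% of all genes called), for OL9-119 (0.0657%) or for both agents (0.27%). An unadjusted p below 0.05 was seen for none of the 10 with Tpc, against 2142 of all 28922 genes, for 2 with OL9-119, against 1968, and for 2 with both agents, against 3420. The OL9-119 response of SRSF3 was 0.43 ± 0.13 (SE) higher in PARP1-KO than in WT, with a 95% interval of 0.16 to 0.69 and an adjusted p of 0.46. The combination response of SRSF10 was lower in PARP1-KO by a log2FC of -0.55 ± 0.16 (95% interval -0.87 to -0.23, adjusted p = 0.10). For SRSF6 the Tpc response differed by 0.026 (-0.32 to 0.37) and the combination response by -0.32 (-0.66 to 0.026), so these intervals include 0. The untreated WT libraries and the untreated PARP1-KO libraries enter all 3 of these tests.

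**Figure D4:**
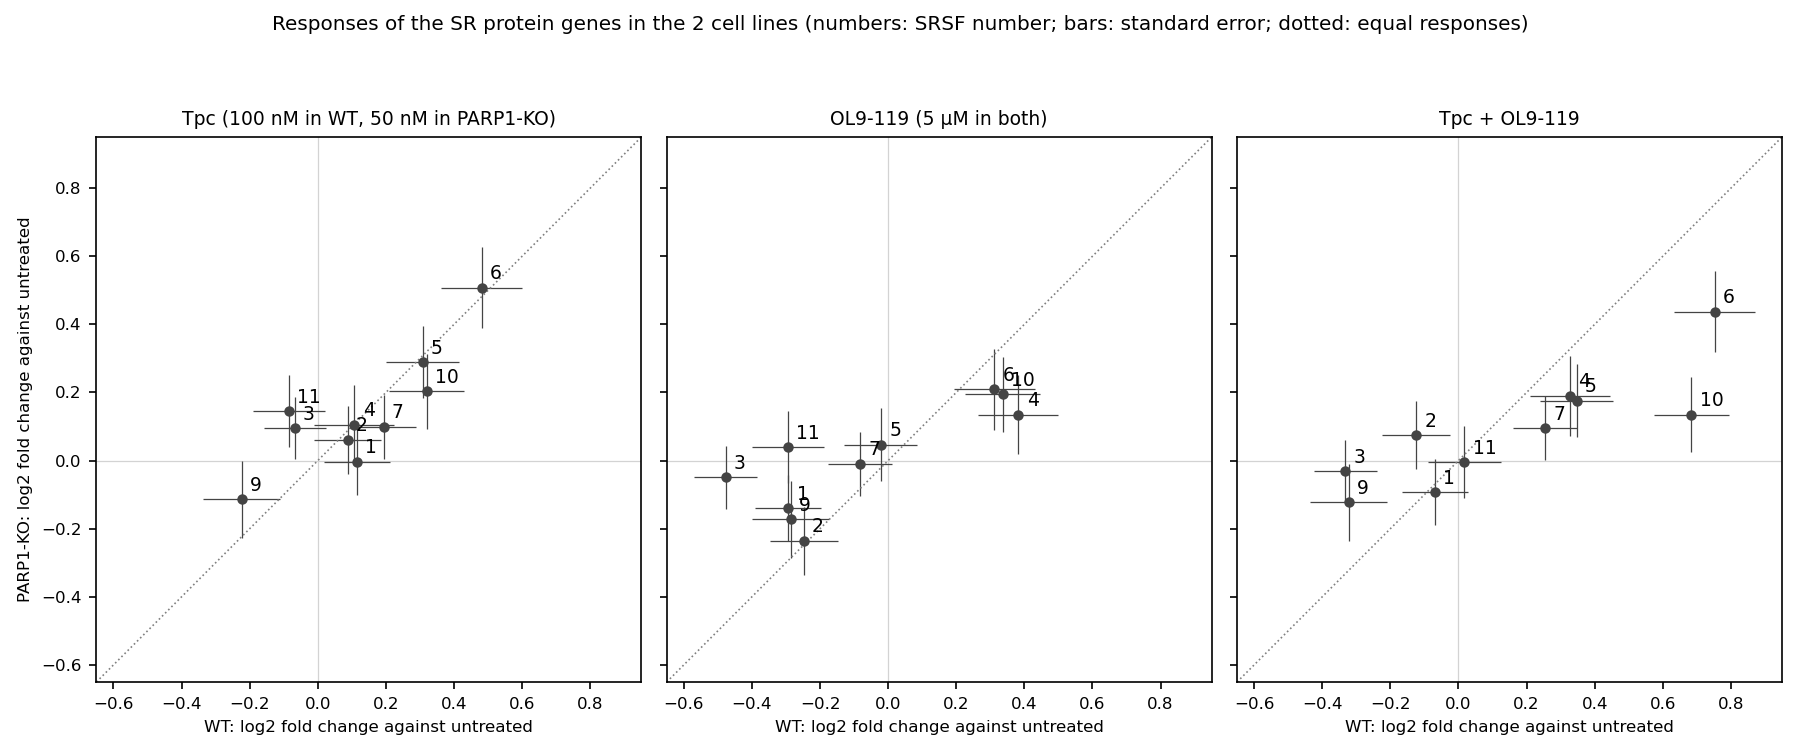
Log2FC of each SR gene (labelled by its SRSF number) in WT on the x axis and in PARP1-KO on the y axis for Tpc, OL9-119 and both agents, with bars of 1 SE and a dotted line of equal response; Tpc was 100 nM in WT and 50 nM in PARP1-KO. SRSF6 lies near the line with Tpc (0.48 and 0.51), SRSF3 above it with OL9-119 (-0.48 and -0.050) and SRSF10 below it with both agents (0.68 and 0.13).

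Genes that act with or on SR proteins were examined as lists. Shares over all genes given beside the list counts are those of the main edgeR fit. For list counts under DESeq2 or with the offsets, no such share is given. The median log2FC (PARP1-KO over WT, untreated and DMSO) was 0.33 and 0.34 for other SR and SR-related genes, 0.23 and 0.22 for SR kinases, phosphatases and import, -0.040 and -0.060 for hnRNP genes, and 0.21 and 0.22 for nonsense-mediated decay, beside 0.17 and 0.19 over all genes tested and 0.011 and 0.020 over genes above 10 CPM. Of 27 other SR and SR-related genes, 10 rose and none fell in PARP1-KO in each genotype comparison, with 10 higher and 1 lower untreated, and 10 higher and 2 lower in DMSO, when length and GC offsets were added. Over all genes 11.7% were called untreated (5.97% higher) and 12.4% in DMSO (6.67% higher). RSRC2, which encodes a protein rich in arginine and serine, stood at 133 ± 10.1 CPM in untreated WT and 345 ± 24.5 CPM in untreated PARP1-KO (mean ± SD, n = 4; log2FC 1.37 ± 0.11 SE, adjusted p = 1.81e-14). CCNL1, a cyclin of splicing-linked kinases, rose by 1.17 ± 0.12 untreated, and SREK1, a splicing regulator, by 0.77 ± 0.12, although SREK1 lost its call with the offsets (0.34). In DMSO the log2FC was 1.67 for RSRC2, 1.22 for CCNL1 and 0.88 for SREK1. In WT cells CCNL1 rose with Tpc (0.56, adjusted p = 0.0027) and RSRC1 fell (-0.88, adjusted p = 0.0011). With both agents 3 rose, among them RSRC2 (0.71) and CCNL1 (0.69), and RSRC1 fell (-0.70). With OL9-119 none of the 27 passed in edgeR or DESeq2, and 4 had an unadjusted p below 0.05, against 4643 of all 28922 genes. In PARP1-KO none of the 27 passed under treatment in either tool. At most 3 had an unadjusted p below 0.05 there, against 931 to 1713 of all genes. The count of 3 higher with both agents became 5 higher in DESeq2 and 2 higher with the offsets.

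Of 13 genes for SR kinases, phosphatases and nuclear import, 3 rose and 1 fell in untreated PARP1-KO, and 4 rose and 1 fell in DMSO, beside 11.7% and 12.4% of all genes called. DESeq2 called 5 higher and 1 lower in both settings, and with length and GC offsets 2 were higher and 2 lower. CLK1, a kinase that phosphorylates SR proteins in the nucleus, stood at 62.0 ± 17.8 CPM in untreated WT and at 149 ± 9.03 CPM in untreated PARP1-KO (mean ± SD, n = 4; log2FC 1.27 ± 0.18 SE, adjusted p = 1.79e-07), and its log2FC was 1.55 in DMSO. SRPK1, the main cytoplasmic SR kinase, rose by 0.65 ± 0.10 untreated and by 0.67 ± 0.10 in DMSO, CLK4 rose by 0.78 in DMSO, and PPP1CA, a catalytic subunit of protein phosphatase 1, fell (-0.84 ± 0.14 and -0.96 ± 0.14). TOP1 stood at 358 ± 35.4 CPM in untreated WT and at 451 ± 49.4 CPM in untreated PARP1-KO, and its log2FC of 0.33 ± 0.10 had an adjusted p of 0.015. None of the 13 passed in edgeR under any drug treatment in either line. In each treatment 1 to 3 had an unadjusted p below 0.05, beside 931 to 6263 of all 28922 genes. DESeq2 called 2 higher with OL9-119 and 2 higher with both agents in WT. The log2FC of TOP1 in WT was -0.21 ± 0.10 with Tpc, -0.16 ± 0.10 with OL9-119 and -0.15 ± 0.10 with both (adjusted p = 0.30, 0.45 and 0.41).

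The hnRNP proteins, which often oppose SR proteins at the same exons, moved in both directions. Of 25 genes, 3 rose and 3 fell in untreated PARP1-KO and 3 rose and 4 fell in DMSO, beside 11.7% and 12.4% of all genes called, and the count that fell was 6 and 9 with length and GC offsets. HNRNPD, which binds AU-rich elements, fell from 615 ± 86.1 to 315 ± 21.9 CPM untreated (mean ± SD, n = 4; log2FC -0.97 ± 0.10 SE, adjusted p = 1.24e-10) and by -0.92 in DMSO. PTBP2, the neuronal polypyrimidine tract binding protein, rose from 17.4 ± 2.06 to 36.7 ± 4.58 CPM (1.08 ± 0.17), and SYNCRIP rose by 0.66 ± 0.11. In WT, PTBP2 also rose with Tpc (0.80 ± 0.17, adjusted p = 0.0024) and with both agents (0.97 ± 0.17), HNRNPM (-0.54) and HNRNPH2 (-0.53) fell with OL9-119, and 3 fell with both agents, among them HNRNPM (-0.63) and HNRNPA1 (-0.49). In PARP1-KO none of the 25 passed under treatment in edgeR or DESeq2. With Tpc, OL9-119 and both agents, 1, 1 and 6 had an unadjusted p below 0.05. Over all 28922 genes these numbers were 1713, 931 and 1241. The 3 that fell with both agents became 9 with the offsets and 5 in DESeq2, and the 2 that fell with OL9-119 became 4 in each.

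Of 15 genes of nonsense-mediated decay and the exon junction complex, 4 rose and none fell in PARP1-KO in each setting, with 5 and 4 higher and 1 lower in each when length and GC offsets were added. Over all genes 5.97% and 6.67% were called higher. SMG1, the kinase that activates UPF1, had the highest value, with 132 ± 57.3 CPM in untreated WT and 296 ± 35.9 CPM in untreated PARP1-KO (mean ± SD, n = 4; log2FC 1.17 ± 0.22 SE, adjusted p = 4.19e-05). CASC3, a core protein of the exon junction complex, rose by 0.53 ± 0.12 untreated and by 0.54 ± 0.12 in DMSO, UPF2 rose by 0.52 ± 0.14 untreated, and SMG8 rose by 0.69 ± 0.16 in DMSO. None of the 15 passed in edgeR under drug treatment in WT or PARP1-KO. In WT 3 had an unadjusted p below 0.05 with Tpc, 4 with OL9-119 and 6 with both agents. Over all 28922 genes these numbers were 4499, 4643 and 6263. DESeq2 called 1, 2 and 2 of the 15 in WT and none in PARP1-KO. In PARP1-KO at most 1 had an unadjusted p below 0.05, against 1713, 931 and 1241 of all genes. SMG1 and HNRNPA1 have near-identical copies elsewhere in the genome, so their counts are uncertain.

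The SR genes did not share a single pattern over the 10 groups. Pearson's r of the mean log2 CPM over the 10 group means was 0.94 for SRSF5 with SRSF7, 0.93 for SRSF1 with SRSF3 and 0.93 for SRSF4 with SRSF10, and -0.91 for SRSF9 with SRSF10. These are descriptions over 10 points that come from the same libraries. Among 10513 other genes with a mean of at least 10 CPM, the pattern most like that of SRSF10 was ZNF569 (r = 0.99), that of SRSF3 was DNAJA1 (0.99), that of SRSF6 was CHAMP1 (0.99) and that of SRSF11 was TMEM38B (1.00 after rounding). For the others it was RBM12 for SRSF1 (0.97), MRTO4 for SRSF2 (0.96), DTWD1 for SRSF4 (0.98), KBTBD6 for SRSF5 (0.98), ZFP82 for SRSF7 (0.98) and TRAPPC3 for SRSF9 (0.98).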

How the data were processed

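RNA from 40 libraries (HEK293A WT and PARP1-KO, 5 treatments, 4 libraries per group) was poly(A)-selected and sequenced in pairs of reads from directional libraries. Per the labels and the study's methods, the authors aligned reads to hg38 with STAR 2.7.8 and checked quality with FastQC 0.11.9 and Picard 2.26.6, and the deposited counts are the whole-number read counts per Ensembl gene given by STAR. Which strand column was kept is not given in the sources used here. Gene symbols came from GENCODE 44, which matched 57754 of 58395 gene IDs.

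Groups were taken from the sample labels. Genes whose counts over the 40 libraries summed to 10 or more were tested with edgeR 4.0.16 (quasi-likelihood test, R 4.3.3) on the deposited counts, with TMM scaling, all 40 libraries in 1 fit of 10 groups and no covariate. Adjusted p-values are Benjamini-Hochberg values over the 28922 genes tested, all p-values are two-sided, and a gene was called at an adjusted p below 0.01. Errors on log2FC are standard errors from the fit, errors on CPM are SDs over 4 libraries. CPM values use TMM-scaled library sizes. Drug treatments were set against untreated cells of the same line, with DMSO as an alternative. Other alternatives were DESeq2 1.42.0, RLE scaling, no filter, filterByExpr, a block of replicate number, library-name prefix as batch, offsets from per-library trends of CPM on GC content and transcript length, a fit of only the groups compared, an adjusted p below 0.05, and leaving out each library. The list counts under DESeq2, RLE and the offsets were added after the data were seen. Shares of all genes called are from the main edgeR fit throughout. The fit was tested on simulated data with known changes. Each SR gene had 549 counts or more in every library. Promoter sequences came from the RefSeq table (GRCh38.p14), which matched 9 of the 10 genes.

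The 10 genes, the other gene lists and the tests were chosen with earlier results of these data known. Named genes are the 10 SR genes, PARP1, at most the 3 called genes with the largest absolute log2FC per list and comparison, and TOP1, CLK1 and SRPK1, and for each SR gene the 1 other gene with the highest Pearson r over group means. Libraries were drawn in figures with Python 3.11.15 and matplotlib 3.10.9.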

Additional observations from a re-analysis of the deposited data

Results flagged for a closer look

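In 4 of the 100 sets of 4 libraries (10 genes in 10 groups) a single library lay far from the other 3 by Dixon's test, where chance alone gives about 1 in 20. SRSF6 stood at 381.2 CPM in replicate 1 of untreated WT, and the other 3 libraries were between 304.3 and 307.5 CPM. SRSF6 stood at 599.0 CPM in replicate 3 of PARP1-KO with DMSO, against 346.2 to 379.1 CPM in the others. In that same library SRSF10 stood at 633.3 CPM, against 421.2 to 457.4 CPM, and without it the SRSF10 log2FC between genotypes in DMSO was 0.65 in place of 0.80 and still passed. SRSF11 stood at 568.9 CPM in replicate 3 of PARP1-KO with OL9-119, against 490.3 to 496.1 CPM.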

How the results depend on the processing

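Of 3130 single-gene values under alternatives, 2912 kept their direction and side of the threshold, 161 changed sign, none of which passed in either fit, 31 gained a call and 26 lost one. Most of these values belong to gene comparisons without a call in the main fit, where staying uncalled counts as kept. Lost calls can only come from the few gene comparisons called there, so the total says little about how stable those calls are. The number of SR genes called between untreated PARP1-KO and WT was 2, and became 1 without a filter on low counts, with length and GC offsets and when only the groups compared were fitted, and 3 in DESeq2, with RLE, with filterByExpr and at an adjusted p below 0.05. In DMSO the 4 called became 6 in DESeq2, 3 with RLE and without the filter, 2 with length and GC offsets, 1 with only the groups compared and 7 at an adjusted p below 0.05. For Tpc in WT the count of 0 became 1 in DESeq2, without the filter, with filterByExpr and at an adjusted p below 0.05. For OL9-119 in WT the 1 called became 2 in DESeq2 and with the offsets and 0 with only the groups compared. For both agents in WT the 2 called became 5 in DESeq2 and 4 at an adjusted p below 0.05. That count was 3 with filterByExpr, with length and GC offsets and against DMSO. For Tpc in PARP1-KO the 0 became 1 with only the groups compared. The fit of only the groups compared has fewer libraries and fewer genes by construction, and the cause of the other changes was not tested. Leaving out 1 library gave 1 to 2 calls untreated, 2 to 3 in DMSO, 0 to 1 for Tpc, 1 for OL9-119 and 2 to 3 for both agents in WT. PARP1 in PARP1-KO stayed between 4.04% and 4.46% of WT untreated, 4.53% and 5.19% in DMSO, 5.09% and 5.57% with Tpc, 4.57% and 4.95% with OL9-119, and 4.74% and 5.20% with both agents when 1 library was left out.

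Of the 4 correlations between deviations of same-numbered libraries, at most 2 were over 0.1 in any comparison. Their mean was lowest between genotypes in DMSO (-0.087, beside 0.021 for libraries of different number). It was highest for DMSO against untreated WT (0.18, beside -0.050). In WT, libraries of the same number also share a name prefix. Whether same-numbered libraries form pairs was not tested. With the replicate block, the count was 3 untreated, 4 in DMSO, 1 for OL9-119 and 2 for both agents in WT, and 0 elsewhere.

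Counts over all genes moved further: over the alternatives they ran from 2213 to 5294 untreated and from 1636 to 5585 in DMSO between genotypes, from 61 to 594 for Tpc, from 42 to 816 for OL9-119 and from 225 to 2476 for both agents in WT. Each SR gene had at least 549 counts in every library.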
